A study of Arabidopsis thaliana with 26 samples.

Results

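ELI3-1 (AT4G37980) and ELI3-2 (AT4G37990) are neighbouring Arabidopsis genes that encode members of the cinnamyl alcohol dehydrogenase (CAD) family. Both were chosen by their gene IDs, 2 of the 33602 IDs in each count file, with their counts in these libraries already known. Their levels and fold changes are therefore a description, and no test was applied to them. The libraries came from whole seedlings of Arabidopsis thaliana Col-0, 7 days old when the treatments began, raised at 22 °C without a dark period. Growth light was 60 µmol per m2 and s. The high light groups stood under 1200 µmol per m2 and s, with a leaf temperature given as 22 °C, for 0.5, 6, 12, 24, 48 or 72 h, and the growth light groups were sampled at the same times. A recovery group had 72 h of high light and was moved back to growth light for 14 h before sampling. The 13 groups have 2 mRNA libraries, each from 25 pooled plants, 26 in all, so differences between organs or single plants are not resolved.

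CAD enzymes reduce cinnamyl aldehydes to the alcohols from which lignin and related phenolics are made, with NADPH as the cofactor. In Arabidopsis CAD4 and CAD5 carry most of the lignin branch, while the ELI3 genes, named for elicitor-activated genes of parsley, are known for their induction in pathogen defence. The ELI3-1 protein, also called CAD7 or CHR, reduces cinnamaldehyde and the leaf aldehyde hexenal, and the ELI3-2 protein, CAD8, acts on a range of aromatic aldehydes and alcohols.

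The genes lie head to tail on the plus strand of chromosome 4. In the RefSeq annotation of build TAIR10.1, ELI3-1 spans chr4:17852441-17854608 with 4 exons in its longest of 2 transcripts, and ELI3-2 spans chr4:17855637-17857878 with 4 exons in 1 transcript. The gap between them is 1028 bases. CAD6, another gene of the family, ends 161 bases before ELI3-1, and DOF4.7, a zinc finger transcription factor gene, starts 472 bases after ELI3-2. No annotated protein-coding gene (0) overlaps either member, and other kinds of gene were not searched for overlap. The intergenic bases that lead up to each gene start are shown, all 161 before ELI3-1 and the last 250 of the 1028 before ELI3-2. Whether they bear on the levels of the pair was not tested. Capitals mark matches, on either strand, to a set of 9 short motifs: TTGAC (W-box core, bound by WRKY factors), CACGTG (G-box), ACGTG (its core), CCGAC (drought-responsive element core), TGACG (bound by TGA factors), GCCGCC (GCC box), ACCNACC (AC element of phenylpropanoid genes), GAANNTTC (heat shock element) and TATAAA. Each full G-box also holds its core.
ELI3-1, chr4:17852280-17852440, plus strand: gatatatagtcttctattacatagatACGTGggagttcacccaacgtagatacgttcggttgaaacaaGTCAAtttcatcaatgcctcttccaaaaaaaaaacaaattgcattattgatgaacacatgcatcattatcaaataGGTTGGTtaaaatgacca
ELI3-2, chr4:17855387-17855636, plus strand: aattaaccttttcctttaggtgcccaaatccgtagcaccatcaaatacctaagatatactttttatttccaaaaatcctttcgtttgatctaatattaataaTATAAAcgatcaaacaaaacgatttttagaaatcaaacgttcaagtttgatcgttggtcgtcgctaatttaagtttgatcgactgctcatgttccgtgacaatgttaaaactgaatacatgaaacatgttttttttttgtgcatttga
Before ELI3-1 the ACGTG core began at -135 from the gene start, TTGAC (as its reverse complement) at -93 and the AC element (reverse complement) at -18. Windows of the same length before 27443 annotated protein-coding genes held these letters in 17.3%, 32.5% and 4.2% of cases. Before ELI3-2 there was 1 match, TATAAA at -148, which 47.3% of windows of 250 bases held. The other motifs were not in these windows, and the rest of the gap before ELI3-2 was not searched.

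The coding sequences are close relatives. ELI3-1 and ELI3-2 have 1074 and 1080 coding bases and are identical at 84.7% of 1074 aligned bases, while the other 7 CAD genes are identical to either member at 57.6% to 67.9%. The longest identical run is 31 bases, and none (0) of the 1793 windows of 50 bases in ELI3-1 transcripts or the 1848 in ELI3-2 occurs in the other gene or elsewhere in the genome. A stretch of 91 coding bases around that run, bases 767 to 857 from the start codon, is shown with the 15 differing bases in capitals.
ELI3-1 coding stretch: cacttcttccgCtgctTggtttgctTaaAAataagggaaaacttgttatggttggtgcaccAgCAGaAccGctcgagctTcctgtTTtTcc
ELI3-2 coding stretch: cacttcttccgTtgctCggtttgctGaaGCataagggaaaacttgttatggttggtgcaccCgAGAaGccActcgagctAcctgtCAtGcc
How the counting treated reads that match both genes, and whether it used strand, is not given in the sources used here.

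Total counts per library lay between 13637677 and 29697279. Levels are CPM, counts relative to the library total after scaling by edgeR's TMM factors. Summed levels of 5 root markers (root hair and Casparian strip genes) ran from 7.20 to 30.1 CPM in high light, 29.1 to 40.9 in recovery and 21.9 to 58.9 in growth light, and all 5 were lower in high light at 24, 48 and 72 h by edgeR's quasi-likelihood test. Those of 3 shoot markers (RBCS1A, LHCB1.3, PSBO1) ran from 16291 to 36233 CPM in high light, 20812 to 23644 in recovery and 28611 to 41093 in growth light. Those of 5 xylem markers ran from 121 to 204 CPM in high light, 106 to 118 in recovery and 150.2 to 187 in growth light. By the same test LHCB1.3 and PSBO1 were lower in high light at every time from 6 h on, and RBCS1A at 48 h alone. Of all tested genes 18.2%, 21.1%, 23.9%, 23% and 22.3% were lower at 6, 12, 24, 48 and 72 h. None of these markers was at 0 in a group, and the part of organ makeup in the results below was not tested. In bulk seedlings fewer cells of a type and less RNA per cell cannot be told apart.

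ELI3-1 was well expressed in every group. High light libraries had 72.8 and 77.2 CPM at 0.5 h, 134 and 148 at 6 h, 126 and 101 at 12 h, 194 and 187 at 24 h, 176 and 208 at 48 h, and 194 and 185 at 72 h. Recovery libraries had 103 and 107 CPM. Growth light libraries had 79.6 and 64.6 CPM at 0.5 h, 78.8 and 66.5 at 6 h, 96.9 and 96.0 at 12 h, 70.6 and 79.1 at 24 h, 109 and 118 at 48 h, and 94.0 and 98.6 at 72 h. The high light libraries stood above both growth light libraries of their time from 6 h onward and lay between them at 0.5 h. The 3 latest high light groups overlapped each other and stood above every other library, while the recovery libraries fell between growth light at 72 h and growth light at 48 h.

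ELI3-2 was almost silent in growth light. The high light libraries had 8 and 7 counts at 0.5 h, 703 and 401 at 6 h, 795 and 283 at 12 h, 3732 and 2731 at 24 h, 1209 and 1285 at 48 h, and 1097 and 1230 at 72 h. The recovery libraries had 101 and 58 counts. In growth light the libraries had 0 and 2 counts at 0.5 h, 0 and 0 at 6 h, 0 and 2 at 12 h, 2 and 0 at 24 h, 2 and 1 at 48 h, and 1 and 1 at 72 h. Every high light and recovery library stood above every growth light library, with the 0.5 h high light libraries only a few counts above.

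Scaled by depth, ELI3-2 had 0.362 and 0.299 CPM in high light at 0.5 h, 26.4 and 14.7 at 6 h, 28.0 and 10.4 at 12 h, 152 and 104 at 24 h, 45.1 and 49.1 at 48 h, and 73.8 and 65.9 at 72 h. Recovery libraries had 6.06 and 3.33 CPM, and no growth light library exceeded 0.108 CPM. The count of 0 in growth light at 6 h allows a level of up to 0.0764 CPM (3 counts over the 2 libraries). These floors, and the intervals below, cover counting error only. Replicates of ELI3-2 at 6, 12 and 24 h of high light lay further apart than those at 48 and 72 h. Those in recovery, 6.06 and 3.33 CPM, also differed more in proportion.

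**Figure D1:**
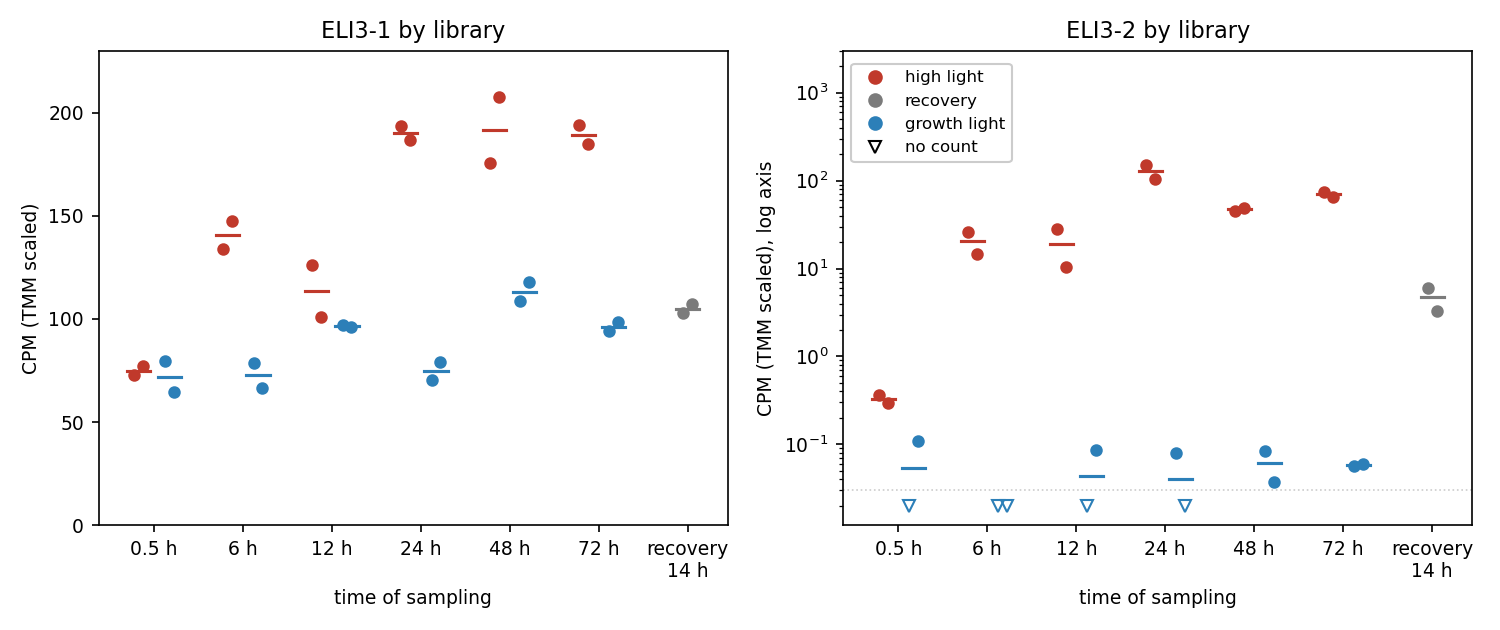
Level of ELI3-1 (left, linear axis) and ELI3-2 (right, log axis) in CPM for each of the 26 libraries, with the group mean as a bar and libraries with no ELI3-2 count as open triangles below the dotted line. ELI3-1 reached 176 to 208 CPM in high light from 24 to 72 h, and ELI3-2 reached 152 and 104 CPM at 24 h and stayed at or under 0.108 CPM in growth light.

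In order of the group means, ELI3-1 was at 192 ± 22.6 CPM in high light at 48 h, 190.2 ± 4.96 at 24 h and 189 ± 6.30 at 72 h (SD, n = 2 here and below), whose libraries overlapped. High light at 6 h followed with 141 ± 9.52 CPM and stood apart from its neighbours in the order. High light at 12 h (113 ± 17.8 CPM) and growth light at 48 h (113 ± 6.48 CPM) overlapped. Recovery came next with 105 ± 3.0 CPM. Growth light at 12 h (96.5 ± 0.640 CPM) and at 72 h (96.3 ± 3.29 CPM) overlapped below it. The lowest 4 groups, high light at 0.5 h and growth light at 24, 6 and 0.5 h, overlapped from one to the next with means of 75.0 to 72.1 CPM.

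ELI3-2 had a different order. High light at 24 h led with 128 ± 33.6 CPM, then 72 h with 69.9 ± 5.58 and 48 h with 47.1 ± 2.85 CPM, each apart from the next. High light at 6 h (20.5 ± 8.26 CPM) and 12 h (19.2 ± 12.5 CPM) overlapped. Recovery followed with 4.69 ± 1.93 CPM and high light at 0.5 h with 0.331 ± 0.0447 CPM, each apart from its neighbours. The 6 growth light groups overlapped from one to the next, with means of up to 0.0613 CPM.

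Set against growth light of the same time, ELI3-1 had log2 fold changes (± SE from the edgeR fit) of 0.06 ± 0.11 at 0.5 h, 0.95 ± 0.11 at 6 h, 0.23 ± 0.11 at 12 h, 1.35 ± 0.11 at 24 h, 0.76 ± 0.11 at 48 h and 0.98 ± 0.11 at 72 h. The largest of these, at 24 h, is a 2.54-fold difference, and at 48 h both lights had their means near the top of their own ranges, 192 CPM in high light and 113 CPM in growth light. The 12 h value rests on the high light libraries: it was 0.07 without replicate 1 and 0.39 without replicate 2. At 0.5 h it was -0.09 without growth light replicate 2 and 0.22 without replicate 1.

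For ELI3-2 the ratio of counts per scaled library total, with its exact 95% Poisson interval, was 5.99 (1.39 to 54.0) at 0.5 h. At 6 h, where growth light had no count, ELI3-2 was at least 268-fold higher in high light with the floor of 3 counts. This bound is not the end of a 95% interval. The ratio was 468 (129 to 3870.1) at 12 h, 3167 (876 to 26156) at 24 h, 786 (269 to 3814) at 48 h and 1182 (327 to 9768) at 72 h. The growth light counts of 0 to 3 per group set these widths: leaving out growth light replicate 2 gave at least 1.96-fold at 0.5 h, at least 163-fold at 12 h and 554-fold at 48 h, and leaving out growth light replicate 1 gave 3.05-fold at 0.5 h, 224-fold at 12 h, at least 1052-fold at 24 h and 1250.1-fold at 48 h. At 24 h the ratio was 1589.6-fold without growth light replicate 2, and the 6 h bound was 111-fold or 157-fold with 1 growth light library. Over all 21449 tested genes, 21.8%, 41.1%, 45.2%, 49.8%, 47.5% and 44.6% passed edgeR's quasi-likelihood test at 0.5, 6, 12, 24, 48 and 72 h, given as background only, since both members were chosen with these values known.

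After 14 h back in growth light both members were lower than at 72 h of high light. The log2 fold change of ELI3-1 was -0.85 ± 0.11, with 105 ± 3.0 CPM in recovery and 189 ± 6.30 CPM at 72 h of high light. ELI3-2 had 4.69 ± 1.93 CPM in recovery and 69.9 ± 5.58 CPM at 72 h of high light, and the level in recovery was 14.9-fold lower (95% Poisson interval 12.7 to 17.6). As a ratio to high light this is 0.0672 (0.0569 to 0.0790). Leaving out 1 library gave ratios of 0.0480 to 0.0873, a wider range than this counting interval. The libraries did not overlap for either gene, in a comparison where 37.1% of tested genes passed. Root markers stood at 29.1 and 40.9 CPM in the recovery libraries and at 7.20 and 10.3 CPM at 72 h of high light, and their part was not tested.

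Against growth light at 72 h, recovery left the pair at different distances. ELI3-1 had a log2 fold change of 0.12 ± 0.11, with 103 and 107 CPM in recovery and 94.0 and 98.6 CPM in growth light, close but without overlap. The ratio for ELI3-2 was 79.5 (21.6 to 662), from 101 and 58 counts in recovery and 1 and 1 in growth light. Leaving out 1 library gave ratios of 56.7 to 103. In this comparison 11.6% of tested genes passed. Both recovery comparisons share the recovery libraries. These were sampled 14 h later than the 72 h groups, and no growth light group had that age. Age and recovery therefore cannot be told apart in either comparison.

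The balance of the pair changed with time. Per kilobase of annotated exon (1897 bases for ELI3-2, 1820 for ELI3-1), the ELI3-2 level was 0.477% and 0.372% of the ELI3-1 level in the high light libraries at 0.5 h, 18.9% and 9.54% at 6 h, and 21.3% and 9.87% at 12 h. It was 75.3% and 53.7% at 24 h, 24.6% and 22.7% at 48 h, and 36.5% and 34.2% at 72 h. Recovery libraries had 5.65% and 2.99%, and growth light libraries at most 0.161%. Within every library ELI3-1 was the higher of the pair, and the values at 24 h stood above those of all other groups. A ratio within a library does not depend on the scaling factors between libraries.

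**Figure D2:**
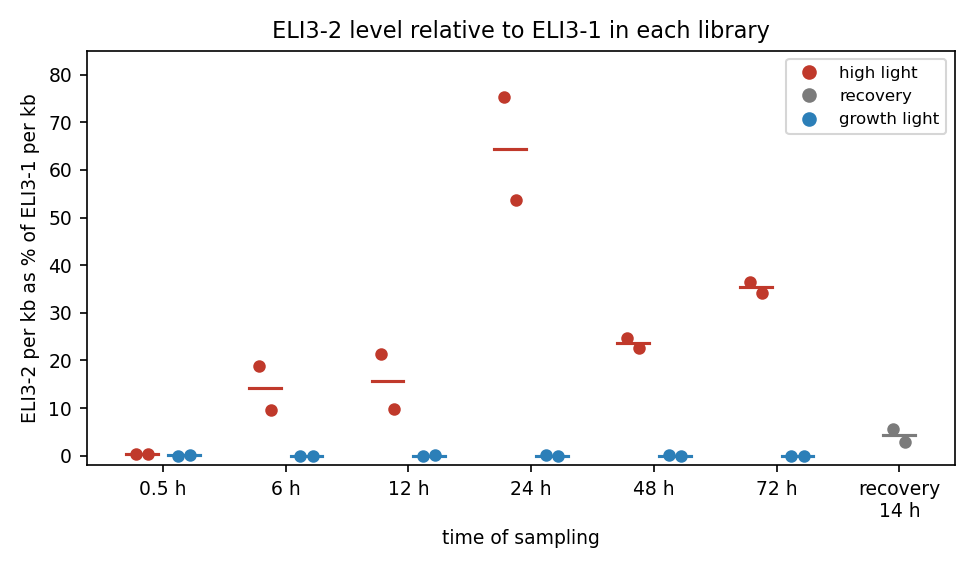
ELI3-2 level per kilobase as a percentage of the ELI3-1 level per kilobase in each library (points) with the group mean (bar). The high light libraries peak at 75.3% and 53.7% at 24 h, recovery has 5.65% and 2.99%, and growth light lies at or under 0.161%.

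Within the CAD family of 9 genes, the place of ELI3-2 shifted more than that of ELI3-1. On a scale of CPM per kilobase, ELI3-2 ranked 4 at 24 h of high light with 67.6 ± 17.7, next to CAD5 with 61.0 ± 7.87, and 9, the last place, in growth light at 24 h with 0.0211 ± 0.0299. Those neighbours at 24 h did not stand apart, since the CAD5 libraries of 66.6 and 55.5 overlap the ELI3-2 libraries of 80.1 and 55.1. ELI3-1 ranked 3 in both lights at 24 h, with 105 ± 2.73 in high light and 41.1 ± 3.29 in growth light. At 72 h it ranked 2 in high light with 104 ± 3.46, above CAD4 with 66.1 ± 1.32, and 3 in growth light with 52.9 ± 1.81.

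As a share of the summed family level per kilobase, ELI3-2 made up 12.6 ± 2.54% in high light at 24 h, 0.669 ± 0.282% in recovery and 0.00535 ± 0.00756% in growth light at 24 h. ELI3-1 made up 19.7 ± 0.725% in high light at 24 h, 24.2 ± 0.586% at 72 h and 15.5 ± 0.250% in recovery, against 9.88 ± 0.0882% and 14.3 ± 0.386% in growth light at 24 and 72 h. CAD9, the family member with the highest level in every group, made up 24.2 ± 0.710% in high light and 48.6 ± 1.69% in growth light at 24 h. The shares of one family are tied to each other, so a higher share of some members goes with a lower share of others.

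The gene lists used here and below were chosen with earlier results of these data known, so calls in them are no independent support. The other 7 CAD genes did not enter the choice of the pair and were tested with edgeR over all 21449 genes. They did not move as a block: CAD1, CAD5 and CAD6 were higher in high light at every time from 6 h on, CAD9 was lower from 12 h on, and CAD4 was higher early and lower late. At 6 h 4 of 7 were higher and 0 lower, where 22.9% of all tested genes were higher and 18.2% lower. The same counts were 4 and 1 at 12 h (24.1% and 21.1% of all tested genes), 3 and 1 at 24 h (26% and 23.9%), 3 and 2 at 48 h (24.5% and 23%) and 3 and 2 at 72 h (22.3% and 22.3%). The median log2 fold change over the 7 genes was 0.53, 0.38, 0.93, 0.69 and 0.59 at these times, and that over all tested genes lay between 0.01 and 0.03.

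CAD1, a family member of less certain function, had the largest called difference among them. Its level was 74.5 ± 6.65 CPM in high light and 18.7 ± 1.24 CPM in growth light at 24 h, a log2 fold change of 2.0 ± 0.12 (adjusted p = 4.92e-12). CAD5, of the lignin branch, had 98.8 ± 12.7 CPM in high light and 51.9 ± 3.47 CPM in growth light at 24 h (0.93 ± 0.09, adjusted p = 1.13e-08). CAD6, the gene just before ELI3-1, differed most at 72 h, with 6.77 ± 0.325 CPM in high light and 2.55 ± 0.183 CPM in growth light (1.40 ± 0.22, adjusted p = 1.98e-05). Its call at 6 h (0.68 ± 0.22) was lost without growth light replicate 1 (adjusted p = 0.121) or high light replicate 1 (adjusted p = 0.0904).

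CAD4, the other gene of the lignin branch, had 239 ± 2.18 CPM in high light and 166 ± 6.13 CPM in growth light at 6 h (0.53 ± 0.06, adjusted p = 3.34e-07). By 48 h it had 120.5 ± 8.75 CPM in high light and 195 ± 5.04 CPM in growth light (-0.69 ± 0.06, adjusted p = 5.37e-09). CAD9 had 177 ± 5.95 CPM in high light and 279 ± 29.5 CPM in growth light at 24 h (-0.66 ± 0.07, adjusted p = 2.00e-07), and its call at 72 h (-0.25 ± 0.08) was lost without growth light replicate 2 (adjusted p = 0.0638). CAD2 and CAD3 stayed under 0.5 CPM in every group and passed in no comparison.

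At 0.5 h 2 of the 7 were higher, CAD5 (0.30 ± 0.09) and CAD9 (0.34 ± 0.07), and 0 lower, where 13.5% of all tested genes were higher and 8.29% lower. The CAD5 call was lost without growth light replicate 1 (adjusted p = 0.178) or high light replicate 1 or 2 (0.0620 and 0.115), and the CAD9 call without growth light replicate 2 (adjusted p = 0.0514). In recovery against 72 h of high light, CAD4 and CAD9 were higher and CAD1, CAD5 and CAD6 lower, 2 and 3 of 7, where 18.6% of all tested genes were higher and 18.6% lower. Against growth light at 72 h, 2 of 7 were lower in recovery (CAD4 and CAD5) and 0 higher, where 6.57% of all tested genes were lower and 5.03% higher, and 0 were called once any of the 4 libraries, recovery replicate 1 or 2 or growth light replicate 1 or 2, was left out.

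**Figure D3:**
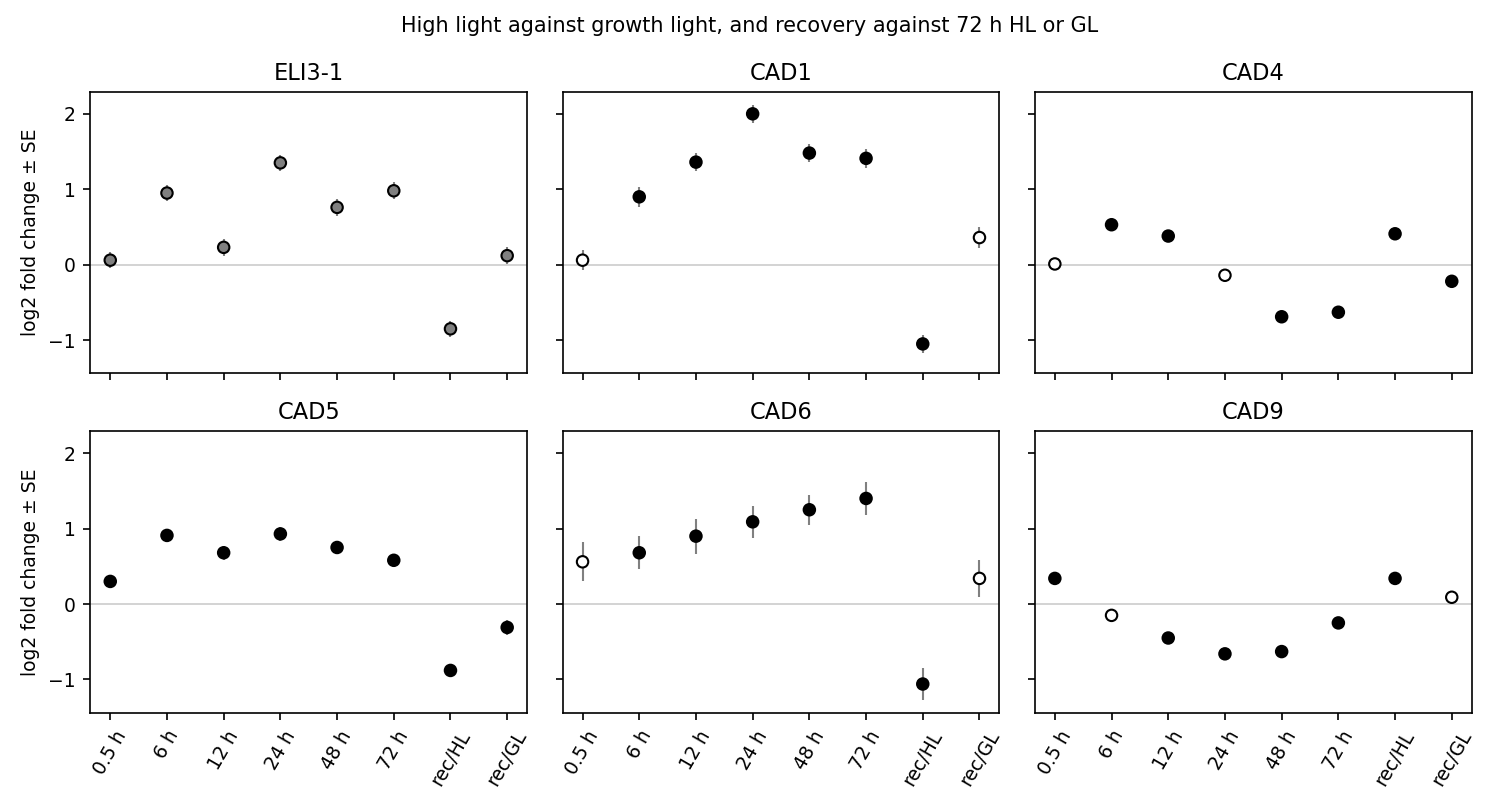
Log2 fold change ± SE of ELI3-1 (grey, not tested) and 5 other CAD genes for high light against growth light at 6 times and for recovery against 72 h high light (rec/HL) and 72 h growth light (rec/GL); filled black points passed edgeR's test and open points did not. CAD1 peaks at 2.0 at 24 h, CAD4 is at 0.53 at 6 h and at -0.69 at 48 h, and CAD9 is at -0.66 at 24 h.

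Among 10 genes of the route that supplies cinnamyl aldehydes and of the laccases that oxidise the alcohols, calls in high light were upward alone at 6, 12 and 24 h and in both directions at 48 and 72 h. Of the 10, 6 were higher and 0 lower at 6 h, 7 and 0 at 12 h, 8 and 0 at 24 h, 1 and 2 at 48 h, and 3 and 3 at 72 h, against the shares of all tested genes given above. Their median log2 fold changes were 0.47, 0.44, 0.31, 0.01 and -0.02. CYP98A3 did not pass at 6, 12 or 24 h (0.22, 0.18 and -0.06), nor did HCT, LAC4 and LAC17 at 6 h (0.08, -0.03 and 0.08), LAC4 and CCR2 at 12 h (0.22 and 0.36) or COMT1 at 24 h (-0.07). Of 5 xylem markers, genes of the tissue where lignin is laid down, 0 were called at 6 h, 3 were higher at 12 h (IRX3, IRX1 and IRX5, by 0.56, 0.52 and 0.33), and 2 were higher (IRX1 and IRX5) and 1 lower (XCP1) at 24 h. At 48 h 1 of the 5 was lower and at 72 h 2 were, with 0 higher, and the part of these markers in the counts was not tested. FAH1, the ferulate 5-hydroxylase of syringyl lignin, had 250.2 ± 10.7 CPM in high light and 155 ± 2.47 CPM in growth light at 12 h (0.69 ± 0.09, adjusted p = 2.87e-06). CCoAOMT1, a methyltransferase of the route, had 468 ± 0.869 CPM in high light and 299 ± 17.2 CPM in growth light at the same time (0.65 ± 0.06, adjusted p = 2.00e-08).

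The cinnamoyl-CoA reductases make the aldehydes that CAD enzymes use. CCR1, the lignin form, had 136 ± 11.6 CPM in high light and 90.1 ± 3.35 CPM in growth light at 6 h (0.60 ± 0.08, adjusted p = 5.16e-06). CCR2, known for its induction in defence, had 7.98 ± 1.04 CPM in high light and 3.41 ± 0.901 CPM in growth light at that time (1.2 ± 0.17, adjusted p = 4.28e-06). CCR2 was higher at 0.5, 6, 24, 48 and 72 h, but its 48 h call was lost without growth light replicate 2 (adjusted p = 0.0984), and its 72 h call without replicate 1 of growth light (0.0606) or of high light (0.0521).

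Several calls of this group were close to the threshold. Of the 8 calls at 24 h, 5 stayed past it with upper-quartile scaling and 4 without growth light replicate 1 or high light replicate 2, and CCoAOMT1 (0.16 ± 0.06) lost its call without any 1 of the 4 libraries. At 72 h 2 were called without growth light replicate 1 and 3 without high light replicate 1. At 0.5 h CCR2 was higher (1.07 ± 0.17) and CSE and COMT1 lower, and 1 call was left without growth light replicate 2 or high light replicate 1. In recovery 5 of 10 were lower than at 72 h of high light (CCoAOMT1, CCR1, CCR2, FAH1 and COMT1) and 0 higher, where 18.6% of all tested genes were lower and 18.6% higher. Against growth light at 72 h, 5 were lower in recovery (HCT, CCR1, FAH1, COMT1 and LAC17) and 0 higher, where 6.57% of all tested genes were lower and 5.03% higher. The last count was 2 without growth light replicate 1 or 2 or recovery replicate 1. The CCoAOMT1 call against 72 h of high light (-0.16 ± 0.06, adjusted p = 0.0491) was lost with the median-ratio (0.0526) or upper-quartile factors (0.0771), without the filter (0.224), with a filter of 1 CPM in 2 libraries (0.0567), and without high light replicate 1 (0.183) or 2 (0.131) or recovery replicate 1 (0.354). Of the 5 xylem markers 4 were lower in recovery than at 72 h of high light and 3 than in growth light at 72 h. Their summed levels were 106 and 118 CPM in recovery, against 152 and 153 CPM in growth light at 72 h, and their part was not tested.

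Hexenal, a substrate of the ELI3-1 enzyme, is made from lipids by 13-lipoxygenases and hydroperoxide lyase, and its alcohol is acetylated by CHAT. The list used here holds HPL1, CHAT and the lipoxygenase genes LOX2, LOX3, LOX4 and LOX6. Which of these lipoxygenases supply hexenal in the seedlings was not tested. Of the 6 listed genes, 5 were higher in high light at 24, 48 and 72 h and 1, LOX6, was lower. Among all tested genes 26%, 24.5% and 22.3% were higher at these times and 23.9%, 23% and 22.3% lower. The counts were 2 higher and 0 lower at 0.5 h (13.5% and 8.29% of all tested genes), 3 and 2 at 6 h (22.9% and 18.2%), and 2 and 1 at 12 h (24.1% and 21.1%). Median log2 fold changes were 0.32, 0.73, 0.57, 2.11, 1.15 and 1.33 from 0.5 to 72 h. LOX4 was highest early, with 81.0 ± 10.3 CPM in high light and 6.33 ± 2.20 CPM in growth light at 0.5 h (3.67 ± 0.21, adjusted p = 7.56e-12). LOX3 had 106 ± 17.5 CPM in high light and 13.3 ± 1.84 CPM in growth light at 24 h (2.99 ± 0.15, adjusted p = 4.06e-13).

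LOX2, the most abundant of them, had 4719 ± 215 CPM in high light and 1101 ± 135 CPM in growth light at 24 h (2.1 ± 0.20, adjusted p = 1.63e-08). HPL1, the hydroperoxide lyase, had 55.4 ± 3.99 CPM in high light and 21.5 ± 0.336 CPM in growth light at 72 h (1.37 ± 0.21, adjusted p = 1.26e-05). Col-0 is known to carry a defective HPL1 allele. In recovery 4 of the 6 (CHAT, LOX2, LOX3 and LOX4) were lower than at 72 h of high light and 0 higher, with a median of -1.46, where 18.6% of all tested genes were lower and 18.6% higher. Against growth light at 72 h, 1, HPL1, was higher in recovery and 0 lower, where 5.03% of all tested genes were higher and 6.57% lower. That HPL1 call (0.91 ± 0.21) was lost without growth light replicate 1 or 2 (adjusted p = 0.0550 and 0.0653) or recovery replicate 1 (0.0575). CHAT and LOX6 were near the threshold. CHAT also had few counts, summed here over the libraries of a group. High light and growth light had 26 and 2 counts at 6 h, 46 and 6 at 24 h, 55 and 21 at 48 h, and 60 and 15 at 72 h. The CHAT log2 fold change at 6 h, 3.11 ± 0.93, was 2.4 without growth light replicate 2 and 2.44 without high light replicate 2. That of LOX6 at 6 h, -0.26 ± 0.07, was -0.2 without growth light replicate 1 and -0.16 without high light replicate 1. The CHAT call at 48 h was lost without growth light replicate 1 or 2 (adjusted p = 0.163 and 0.0654) or high light replicate 1 (0.288), and at 72 h without high light replicate 2 (0.110). The LOX6 call at 48 h was lost without growth light replicate 1 or 2 (0.0542 and 0.103) or high light replicate 2 (0.156), and at 72 h without replicate 2 of growth light (0.164) or of high light (0.141). At 12 h LOX4 lost its call without growth light replicate 1 (0.0605). At 6 h 3 calls were left without growth light replicate 2 or high light replicate 1, among them not HPL1 (adjusted p = 0.301 and 0.394).

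**Figure D4:**
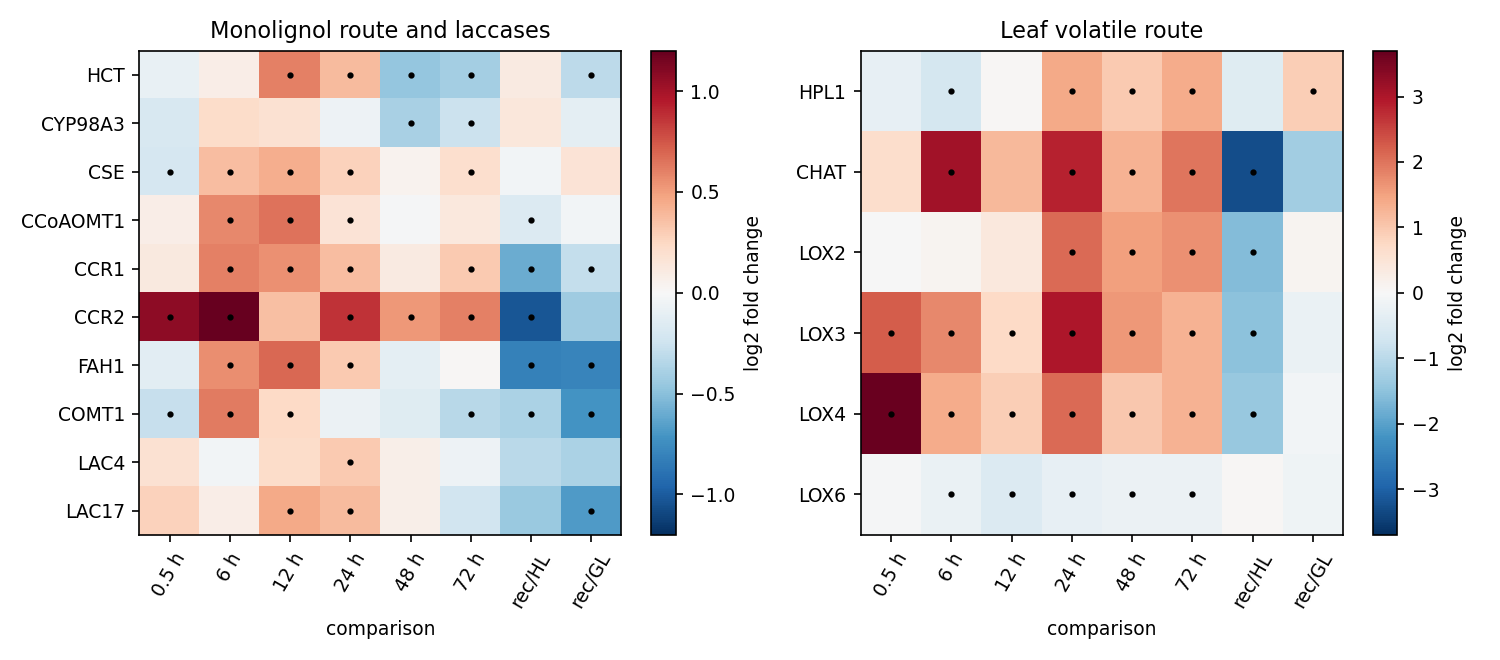
Log2 fold changes of 10 monolignol and laccase genes (left) and 6 leaf volatile genes (right), each with its own colour scale, for high light against growth light at 6 times and for recovery against 72 h high light (rec/HL) and growth light (rec/GL); dots mark genes past edgeR's test. Of the 10 monolignol and laccase genes 6, 7 and 8 passed as higher at 6, 12 and 24 h, and 5 of the 6 volatile genes are higher at 24, 48 and 72 h.

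The genes around the pair were also compared, 4 protein-coding genes on each side in annotation order. Upstream of CAD6, AT4G37950 had at most 5 counts in a library and was not tested, and AGL21, a root transcription factor gene, stayed under 2 CPM on average in every group. AGL21 was higher at 12 h (1.66 ± 0.505 CPM in high light and 0.707 ± 0.102 CPM in growth light, 1.23 ± 0.32, adjusted p = 0.00341) and 24 h (0.92 ± 0.34, adjusted p = 0.0270), and lower in recovery than at 72 h of high light (-1.18 ± 0.38, adjusted p = 0.0185). SHM1, the photorespiratory serine hydroxymethyltransferase, was called at 24 h alone, lower by a small amount (2269 ± 74.8 CPM in high light and 2700.0 ± 184 CPM in growth light, -0.25 ± 0.09). Downstream, AT4G38005 was not analysed here, AT4G38010 was higher at 12, 48 and 72 h and AT4G38020 from 12 to 72 h. AT4G38020 had 20.7 ± 0.839 CPM in high light and 11.5 ± 0.620 CPM in growth light at 48 h (0.85 ± 0.12, adjusted p = 7.40e-06).

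DOF4.7, directly after ELI3-2 on the same strand, was higher in high light from 12 h on. It had 9 and 14 counts in high light and 1 and 3 in growth light at 12 h (2.25 ± 0.72, adjusted p = 0.0138), and 109 and 72 in high light and 2 and 2 in growth light at 24 h (log2 fold change 5.38 ± 0.49, adjusted p = 5.98e-09). At 48 h it had 38 and 33 counts in high light and 1 and 5 in growth light (3.43 ± 0.53, adjusted p = 1.46e-05), and at 72 h 46 and 47 in high light and 0 and 1 in growth light (adjusted p = 1.62e-07). Recovery libraries had 2 and 4 counts, lower than at 72 h of high light (-3.94 ± 0.50, adjusted p = 1.89e-06). In the libraries with at least 50 ELI3-2 counts, the DOF4.7 count was 0.853% to 6.90% of the ELI3-2 count, with 2.92% and 2.64% at 24 h of high light. Whether some of these counts come from transcripts that run on from ELI3-2 was not tested.

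**Figure D5:**
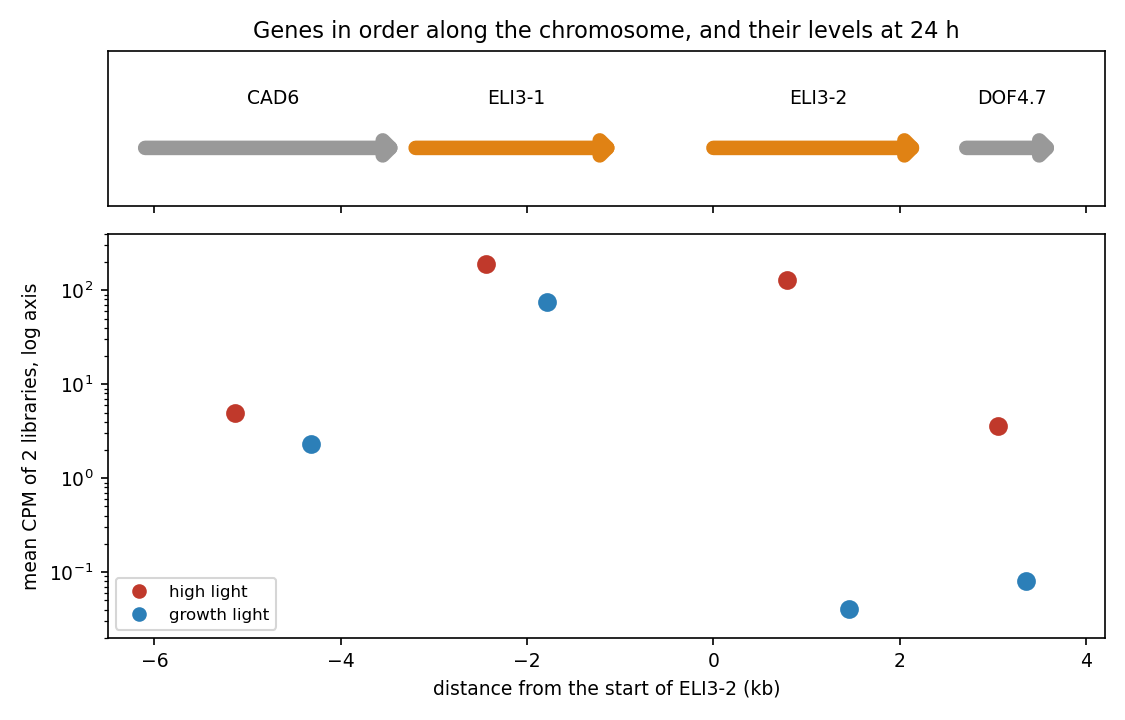
The pair and its nearest neighbours as arrows in the direction of transcription, placed by distance in kb from the start of ELI3-2, over the mean CPM of each gene in 2 libraries per light at 24 h (log axis). ELI3-1 has 190.2 CPM in high light and 74.8 CPM in growth light, and ELI3-2 has 128 CPM in high light and 0.0401 CPM in growth light.

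Over the 13 group means of log2 CPM, the members resembled each other with a Pearson r of 0.886. A prior count of 2, scaled to library size, was added before the log. The growth light points of ELI3-2, with 0 to 3 counts per group, are set largely by this prior count. Of 16738 genes with at least 5 CPM in 1 group, those most like ELI3-2 were AT4G12735 (0.983), AT2G17280 (0.982), the nitrate transporter gene NRT1.8 (0.981), AT1G09500 (0.980) and AT1G43900 (0.979). AT1G09500 had 104 CPM in high light and 2.54 CPM in growth light at 24 h, NRT1.8 had 22.3 CPM in high light and 1.21 CPM in growth light, and AT1G43900 had 31.3 CPM in high light and 25.8 CPM in growth light. Genes with nearly the same correlation thus had very different amplitudes.

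Most like ELI3-1 were AT4G03410 (0.971), the senescence-associated gene SAG13 (0.956), the beta-amylase gene BAM5 (0.950), AT3G28480 (0.949) and AT2G43540 (0.949). SAG13 had 112 CPM in high light and 0.726 CPM in growth light at 24 h, and AT4G03410 had 24.9 CPM in high light and 12.3 CPM in growth light. Of the other 7 CAD genes CAD1 (0.945) and CAD6 (0.909) were most like ELI3-2, CAD1 (0.883) and CAD6 (0.875) also most like ELI3-1, and CAD9 ran opposite to both (-0.737 with ELI3-2 and -0.768 with ELI3-1). These points share 26 libraries and one division into high and growth light, so such values describe a shared time course.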

How the data were processed

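Whole-seedling mRNA was sequenced as 26 stranded, single-end libraries, 1 file each, grouped by the labels' treatment and time. The deposited files hold raw read counts per gene, without normalization. Per the submitters' processing notes, the authors used TopHat2 2.1.1, HTSeq 0.6.0 and edgeR with genome build TAIR10; what each was used for, and with which settings and strand option, is not given in the sources used here.

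Counts were analysed with R 4.3.3, edgeR 4.0.16 and limma 3.58.1. filterByExpr (minimum count 10) kept 21449 genes, TMM factors ran from 0.924 to 1.09, and the fit had a mean for each group over all 26 libraries (13 residual degrees of freedom, common dispersion 0.00428). Tests were edgeR's quasi-likelihood tests with Benjamini-Hochberg adjustment over all tested genes and a threshold of 0.05; the fitting code was tested on simulated data. An SE is the log2 fold change divided by the square root of F. A ratio with 1 to 3 counts has an exact conditional 95% interval, and a group with no count a floor of 3 counts over its 2 libraries. The labels do not say that replicates came from separate cultures, and a p-value therefore speaks only to the spread of the libraries at hand, possibly technical.

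Files hold gene IDs without coordinates. Positions, exon lengths and sequences are those of RefSeq's TAIR10.1, matched by locus tag (32835 of 33602 IDs) and read with Biopython 1.88. Motif shares use windows of equal length before every annotated protein-coding gene.

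The members and gene lists were chosen with earlier results of these data known. The genes named are both members, all genes of the CAD, monolignol and leaf volatile lists, 4 neighbours on each side, and the 5 genes most like each member. Alternatives were other scaling factors, other filters, DESeq2 1.42.0, a block for the replicate number, fits of the compared groups alone, pooled growth light and each library left out.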

Additional observations from a re-analysis of the deposited data

Results flagged for a closer look

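Genes of the 3 lists whose effect had opposite signs at different times, by both libraries of a group, were looked at again, with edgeR's quasi-likelihood test of the difference between the effects, adjusted over all tested genes. The times set against each other were picked as the most opposite of the 6 on these same libraries, so the p-values restate that choice and are no independent support. CAD4 was higher in high light at 6 h and lower at 48 h, with log2 effects 1.22 apart (adjusted p = 3.63e-09). CAD9 was higher at 0.5 h and lower at 24 h, 1.0 apart (adjusted p = 2.10e-07). The CAD9 call at 0.5 h was lost with only the compared groups in the model (adjusted p = 0.0538) and without growth light replicate 2 (0.0514).

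Among the monolignol genes HCT was higher at 12 h and lower at 48 h, 1.06 apart (adjusted p = 3.40e-07). COMT1 was higher at 6 h and lower at 72 h, 0.95 apart (adjusted p = 2.85e-06). CSE was higher at 12 h and lower at 0.5 h, 0.63 apart (adjusted p = 1.02e-05). The CSE call at 0.5 h (-0.20, adjusted p = 0.0296) was lost without the filter (0.0648), with only the compared groups (0.196), and without growth light replicate 1 (0.140) or 2 (0.0536) or high light replicate 1 (0.314). For FAH1 the effects at 12 h (0.69) and 0.5 h (-0.13, adjusted p = 0.375) were 0.83 apart (adjusted p of the difference 5.06e-05). For CYP98A3 the effects at 6 h (0.22, adjusted p = 0.0502) and 48 h (-0.39) were 0.61 apart (adjusted p of the difference 0.00102).

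HPL1, of the leaf volatile list, was higher at 24 h and lower at 6 h, 2.03 apart (adjusted p = 0.000120). The HPL1 call at 6 h was lost with the replicate block (adjusted p = 0.0507), with DESeq2 (0.0688), and without growth light replicate 2 (0.301) or high light replicate 1 (0.394). For CAD2 the effects at 24 h (1.24) and 6 h (-3.57) were 4.81 apart, but with 1 to 11 counts per group the difference did not pass (adjusted p = 0.0717).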

How the results depend on the processing

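The ELI3-1 log2 fold changes moved by less than the spread between replicates in 56 of 56 alternatives other than leaving out a library. With only the compared groups in the fit, 1 other CAD gene and 1 monolignol gene were called at 0.5 h (2 and 3 before) and 3 leaf volatile genes at 6 h (5 before). With upper-quartile factors 5 monolignol genes were called at 24 h (8 before). With all growth light libraries pooled, the ELI3-2 ratio was 7.73 at 0.5 h, 479 at 6 h, 1103 at 48 h and 1626 at 72 h, and with library totals alone it was 853 at 48 h. Leaving out 1 library gave ELI3-2 ratios of 1.96 to 6.58 at 0.5 h, 111 to 345 at 6 h, 163 to 677 at 12 h, 1052 to 3776 at 24 h and 554 to 1250.1 at 48 h, where the values at 6 h and the lowest at 0.5, 12 and 24 h are lower bounds. Calls then numbered 1 to 2 other CAD and 1 to 2 monolignol genes at 0.5 h, 3 to 4 leaf volatile genes at 6 h, and 4 to 7 and 2 to 5 monolignol genes at 24 and 72 h. For recovery against growth light they numbered 0 other CAD, 2 to 4 monolignol and 0 to 1 leaf volatile genes. The cause of these shifts was not tested. Of single-gene results, 1852 kept their side of the threshold, 104 lost the call and 30 gained one. Reversals of direction numbered 0 among results with a call in either fit, and were not counted among the others.

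Same-numbered replicates did not deviate together (correlation of deviations -0.144 to 0.04 over 8 comparisons, 0 over 0.1). The replicate numbers thus gave no sign of pairing. The labels do not say how replicates were grown or prepared, so whether they are paired is not known. With the replicate number as a block, ELI3-1 at 24 h stayed at 1.35, other CAD calls at 6 h numbered 5 (4 before) and leaf volatile calls at 6 h 4 (5 before).

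With 2 libraries per group, ELI3-2 counts of 0 to 3 in growth light bound its ratios.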
